A study of Mus musculus with 3 samples.

Results

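A set of 8 genes of the Bcl2 family and of neutrophil lifespan was followed through the single-cell transcriptomes of mouse meninges: *Mcl1*, *Bcl2a1a*, *Bcl2a1b*, *Bcl2a1d*, *Bcl2*, *Bax*, *Fas* and *Cflar*. Only their RNA was counted, and lifespan was not measured. They were taken by symbol, 8 of the 27998 genes counted, in every barcode with at least 500 UMIs (distinct RNA molecules), a gene number within the study's limits and less than 8.3% of UMIs from mitochondrial genes. All mice were male C57BL/6J of 10 to 12 weeks, and no group carried a genetic change. HC mice stayed unstressed in the home cage and were pooled by 4 into HC replicate 1 and HC replicate 2. CSD replicate 1 pooled 4 stress-susceptible mice after 14 days of chronic social defeat, in which an aggressor mouse repeatedly defeats the animal. Live nucleated cells were sorted from meninges picked off brain and skull, so cells of skull bone marrow may be among them. With 1 CSD pool, stress and what is particular to that pool cannot be told apart.

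Programmed death of a cell can start at the mitochondria or at receptors on its surface. Anti-apoptotic proteins of the Bcl2 family (Mcl1, the A1 proteins encoded by the *Bcl2a1* copies, and Bcl2 itself) hold back effectors such as Bax, which otherwise permeabilize the outer mitochondrial membrane. Fas is a death receptor that recruits caspase-8, and the protein made from *Cflar*, c-FLIP, blocks that step. Neutrophils are short-lived, and they are known to depend on Mcl1, a protein of fast turnover.

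The 3 libraries held 2599 cells (HC replicate 1), 1702 cells (HC replicate 2) and 2756 cells (CSD replicate 1) with median depths of 2212 to 2503 UMIs. Barcodes of at most 100 UMIs, the empty droplets, held 24.1% of all UMIs of HC replicate 2 against 7.87% and 5.48% in the others, so RNA free in the suspension differed between libraries. The libraries shared 3 to 8 cell barcodes pairwise, against 6.0 to 9.7 by chance. Clustering without the 8 genes gave 18 clusters, and 16 cell types had at least 20 cells in each library. Neutrophil-like cells numbered 775, 563 and 1307. *S100a8* and *S100a9*, defining genes of neutrophils, were among the 10 leading genes of both their clusters. The B cell genes among their UMIs placed their share of free RNA at 28.0%, 29.2% and 21.7%. Levels are in CPM: a gene's UMIs in 1 cell type of 1 library, per 1000000 UMIs there. The level in empty droplets is given beside the values. Free RNA was only a part of the UMIs of neutrophil-like cells. A level at or below that of empty droplets was not set apart from background here, nor shown to be background.

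The *Bcl2a1* copies are printed here because their counts rest on reads that must be told apart. They lie on chromosome 9 of GRCm38: *Bcl2a1d* at chr9:88723285-88731914 on the minus strand, *Bcl2a1a* at chr9:88956900-88962419 and *Bcl2a1b* at chr9:89199209-89207827, both on the plus strand. Their transcripts are 97.9% identical between *Bcl2a1a* and *Bcl2a1b*, 93.7% between *Bcl2a1a* and *Bcl2a1d*, and 93.9% between *Bcl2a1b* and *Bcl2a1d*. The coding part of the last exon (GENCODE, GRCm38), at chr9:88962172-88962267, chr9:89207582-89207677 and chr9:88723437-88723532 in the order below, differs only at the capital letter.
Bcl2a1a: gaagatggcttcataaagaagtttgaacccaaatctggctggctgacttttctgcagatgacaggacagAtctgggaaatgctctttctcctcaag
Bcl2a1b: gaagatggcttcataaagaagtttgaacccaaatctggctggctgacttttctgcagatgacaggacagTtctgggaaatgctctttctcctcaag
Bcl2a1d: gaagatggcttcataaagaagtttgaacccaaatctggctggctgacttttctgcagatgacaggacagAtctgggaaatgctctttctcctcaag
In these 96 bases *Bcl2a1a* and *Bcl2a1d* are the same. Within the last 400 bases of the transcript, where a 3′ library reads, 74.9% of the 98-base windows of *Bcl2a1a*, 70.3% of *Bcl2a1b* and 45.2% of *Bcl2a1d* occur in neither of the other copies. Levels of single copies, and of *Bcl2a1d* above all, are therefore uncertain, and their sum is given as well.

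The stretch just upstream of the 3 copies (RefSeq, GRCm38.p6) is shown because it is the same apart from a few bases, while the levels of the copies parted between cell types. It lies at chr9:88956714-88956855 for *Bcl2a1a*, chr9:89199023-89199164 for *Bcl2a1b* and, on the minus strand, chr9:88731915-88732050 for *Bcl2a1d*. Capitals mark the core motif of PU.1, a factor of myeloid and B cells.
Bcl2a1a: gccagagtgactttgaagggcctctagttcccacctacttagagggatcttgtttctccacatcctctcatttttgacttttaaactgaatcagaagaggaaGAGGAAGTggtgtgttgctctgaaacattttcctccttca
Bcl2a1b: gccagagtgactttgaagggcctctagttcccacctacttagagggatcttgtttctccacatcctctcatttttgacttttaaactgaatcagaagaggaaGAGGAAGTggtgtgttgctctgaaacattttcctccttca
Bcl2a1d: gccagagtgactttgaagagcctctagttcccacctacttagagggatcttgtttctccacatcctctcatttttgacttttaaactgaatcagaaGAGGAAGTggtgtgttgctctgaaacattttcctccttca
*Bcl2a1a* and *Bcl2a1b* are identical over 142 bases, and *Bcl2a1d* differs from both by 1 substitution and lacks 6 bases. The motif GAGGAAGT was searched on both strands of the 300 bases around each gene's start. It occurred in 1052 of 32851 such windows (3.20%) and in 3 of the 8 genes, the 3 copies. The NF-kB consensus occurred in 1480 windows (4.51%) and in none of the 8, which says only that those letters were not in these windows. The other genes lie at chr3:95658788-95663176 (*Mcl1*, plus strand), chr1:106538178-106714274 (*Bcl2*, minus), chr7:45461697-45466898 (*Bax*, minus), chr19:34290666-34327772 (*Fas*, plus) and chr1:58711508-58758884 (*Cflar*, plus), in GRCm38.

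Among the anti-apoptotic members *Mcl1* was the abundant one in neutrophil-like cells. Its level was 188 CPM in HC replicate 1, 210 CPM in HC replicate 2 and 193 CPM in CSD replicate 1, a mean of 197 ± 11.9 CPM (SD, n = 3 libraries) from 1282 UMIs. Only the cDC-like cluster ranked higher, at 204 CPM (193, 195 and 224), and the ranges overlapped. Microglia-like cells followed at 177 CPM, mature B-like cells at 157, border macrophage-like cells at 152 and monocyte-like cells at 149. Fibroblast-like cells were lowest at 49.5 CPM, and preneutrophil-like cells, the precursor cluster, had 68.4 CPM. Across the 16 types the highest mean was 4.12 times the lowest, and none of the 15 neighbouring pairs in the order was free of overlap. Empty droplets held 162, 87.4 and 181 CPM, so the level in neutrophil-like cells was above that of free RNA in each library, most closely in CSD replicate 1. The cDC-like cluster also carried genes of antigen presentation that B cells share, which were 2 of its 10 leading genes on the mature B list against 1 on its own.

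Each of the 3 *Bcl2a1* copies, by contrast, was highest on average in border macrophage-like cells or in the cDC-like cluster. *Bcl2a1b* reached 243, 461 and 296 CPM in border macrophage-like cells and 209, 242 and 325 CPM in microglia-like cells. T-like cells had 151, 121 and 171 CPM. NK-like cells, at 81.6, 75.8 and 81.0 CPM, were near the level of empty droplets, and mature B-like (50.4 CPM), pre-B and immature B-like (19.1 CPM) and pro-B-like cells (9.36 CPM on average) below it. Neutrophil-like cells had 34.0 CPM in HC replicate 1, 48.2 CPM in HC replicate 2 and 20.1 CPM in CSD replicate 1, below the 74.5, 77.5 and 67.9 CPM of empty droplets. Summed over the copies, neutrophil-like cells held 262 UMIs in 2645 cells, and their level, too, was below that of empty droplets (96.4, 109 and 109 CPM) in all 3 libraries. For the population as a whole, the part of free RNA in these levels was not tested.

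*Bcl2a1d* and *Bcl2a1a* followed another order. *Bcl2a1d* was highest in the cDC-like cluster (77.3, 247 and 140 CPM, not overlapping with the next type), then in border macrophage-like cells (63.9 CPM), T-like cells (46.3 CPM) and NK-like cells (36.4 CPM), against 14.1, 19.3 and 30.4 CPM in empty droplets. *Bcl2a1a* led in the cDC-like cluster as well, at 30.7, 94.4 and 84.4 CPM, while T-like cells (7.02 CPM) and mature B-like cells (1.52 CPM) did not exceed the 7.71, 12.2 and 10.7 CPM of empty droplets in any library. It had no UMI in NK-like cells. That 0 was out of 57 UMIs of the copies, which allows a share of up to 6.27% (exact 95% limit).

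The mix of copies differed between types and was alike in the libraries. *Bcl2a1d* made up 35.6%, 39.1% and 35.3% of the *Bcl2a1* UMIs of the cDC-like cluster, and 3.64%, 3.39% and 0% of those of microglia-like cells. Exact intervals for the cDC-like cluster began at 27.7% at the lowest, and those of microglia-like cells ended at 11.7% at the highest. T-like cells (22.2%, 28.1% and 19.8%) and border macrophage-like cells (14.6%, 12.7% and 18.0%) lay between them. *Bcl2a1a* took 14.1%, 14.98% and 21.3% in the cDC-like cluster against 1.11%, 5.26% and 4.17% in T-like cells. *Bcl2a1b* took the largest share in both, from 43.3% to 50.3% in the cDC-like cluster and from 83.6% to 93.2% in microglia-like cells. In monocyte-like cells of CSD replicate 1, with 19 UMIs of the copies, *Bcl2a1d* had 8 and *Bcl2a1b* 7. In neutrophil-like cells the shares over all libraries were 74.4% for *Bcl2a1b*, 14.5% for *Bcl2a1a* and 11.1% for *Bcl2a1d*, beside 70.9%, 10.3% and 18.8% in empty droplets. A read that fits more than 1 copy is not counted by the usual rules of the counting program, so these shares are of what could be assigned and compare types, not copies.

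**Figure D1:**
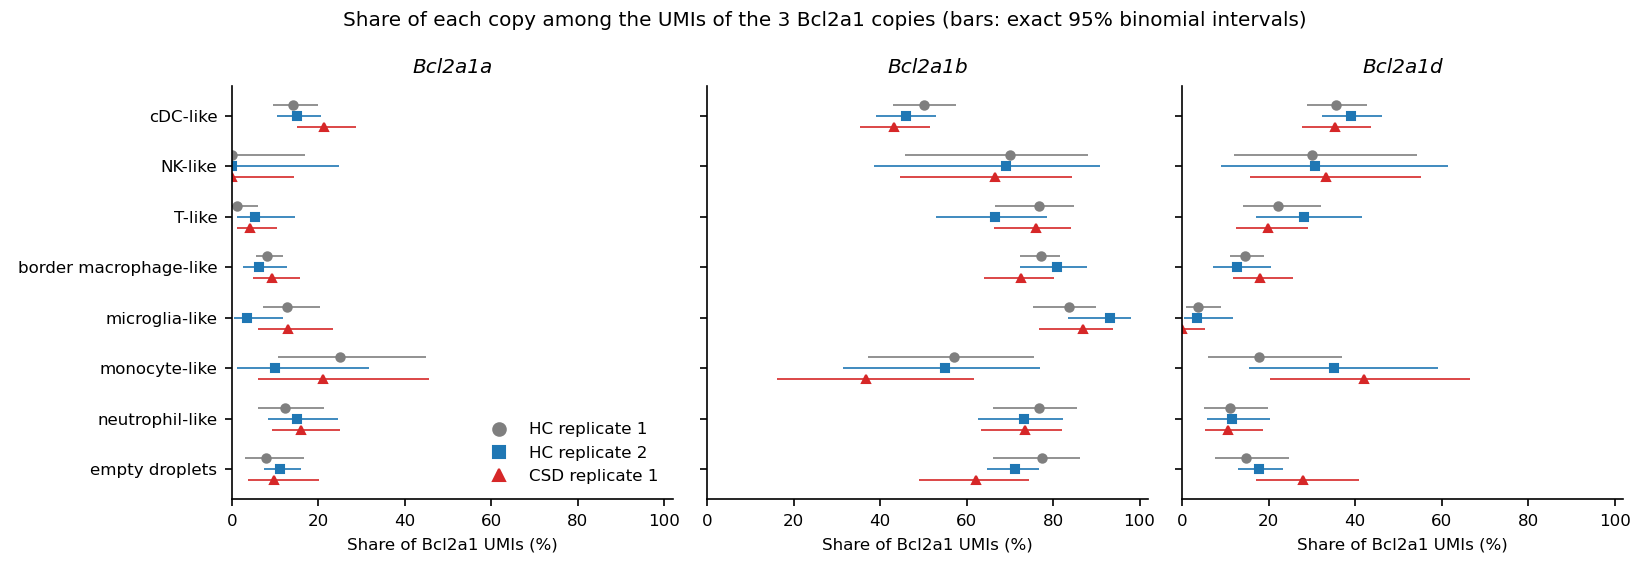
Share of each *Bcl2a1* copy (x axis, percent) among the UMIs of the 3 copies, by cell type (y axis) and library (grey circles HC replicate 1, blue squares HC replicate 2, red triangles CSD replicate 1), with exact 95% binomial intervals as bars. The 3 points of the cDC-like cluster lie at 35.3% to 39.1% for *Bcl2a1d*, and those of microglia-like cells at 0% to 3.64%.

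*Bcl2*, the founding member of the family, was highest in NK-like and T-like cells. It reached 461, 447 and 466 CPM in NK-like cells and 483, 359 and 406 CPM in T-like cells, which overlapped with each other and with no other type. Mature B-like cells came next at 106 ± 14.0 CPM (SD, n = 3 libraries), then olfactory neuron-like cells at 71.7 CPM. The earlier B-lineage types were low, with 24.6 CPM in pro-B-like and 19.6 CPM in pre-B and immature B-like cells, and did not exceed empty droplets in any library. Neutrophil-like cells ranked 16 of 16 with 20.5 CPM in HC replicate 1, 14.5 CPM in HC replicate 2 and 9.6 CPM in CSD replicate 1, from 90 UMIs in all. Empty droplets held 64.2, 61.6 and 37.5 CPM, above the neutrophil-like value in each library. The ratio of the highest to the lowest type was 30.7, against 4.12 for *Mcl1*.

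*Bax*, the effector, was also lowest in neutrophil-like cells. The level was 62.7 CPM in HC replicate 1, 85.6 CPM in HC replicate 2 and 57.2 CPM in CSD replicate 1, below the 141 to 167 CPM of empty droplets. The neighbour above was the preneutrophil-like cluster at 88.5 CPM, with overlapping ranges, and the other 14 types had means of 134 CPM or more. Highest were the unnamed cluster 17, whose leading genes include *Hist1h2ap*, *Stmn1* and *Hmgb2* of dividing cells, at 238 CPM, and monocyte-like cells at 220 ± 5.3 CPM (SD, n = 3 libraries).

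*Fas*, the death receptor, was higher in neutrophil-like cells than in most types. It stood at 61.6 CPM in HC replicate 1, 55.8 CPM in HC replicate 2 and 77.9 CPM in CSD replicate 1, above the 23.1, 33.8 and 26.8 CPM of empty droplets. Monocyte-like cells, the next type, had 45.3, 23.9 and 46.0 CPM, and their range did not overlap. Endothelial-like cells ranked above neutrophil-like cells at 108 CPM, but with 19 UMIs in all and a range of 39.2 to 157 CPM. Preneutrophil-like cells were at 7.97 to 13.6 CPM and pro-B-like cells at 4.20 CPM on average.

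*Cflar* varied little, with a ratio of 3.92 between the highest and the lowest type. Microglia-like cells had 125, 92.4 and 103 CPM, the only type whose range was clear of the next. Neutrophil-like cells ranked 6 of 16 at 48.6, 58.9 and 40.0 CPM, level with the 56.5, 48.4 and 48.3 CPM of empty droplets. The plot of levels by cell type shows all 8 genes against these empty-droplet levels.

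**Figure D2:**
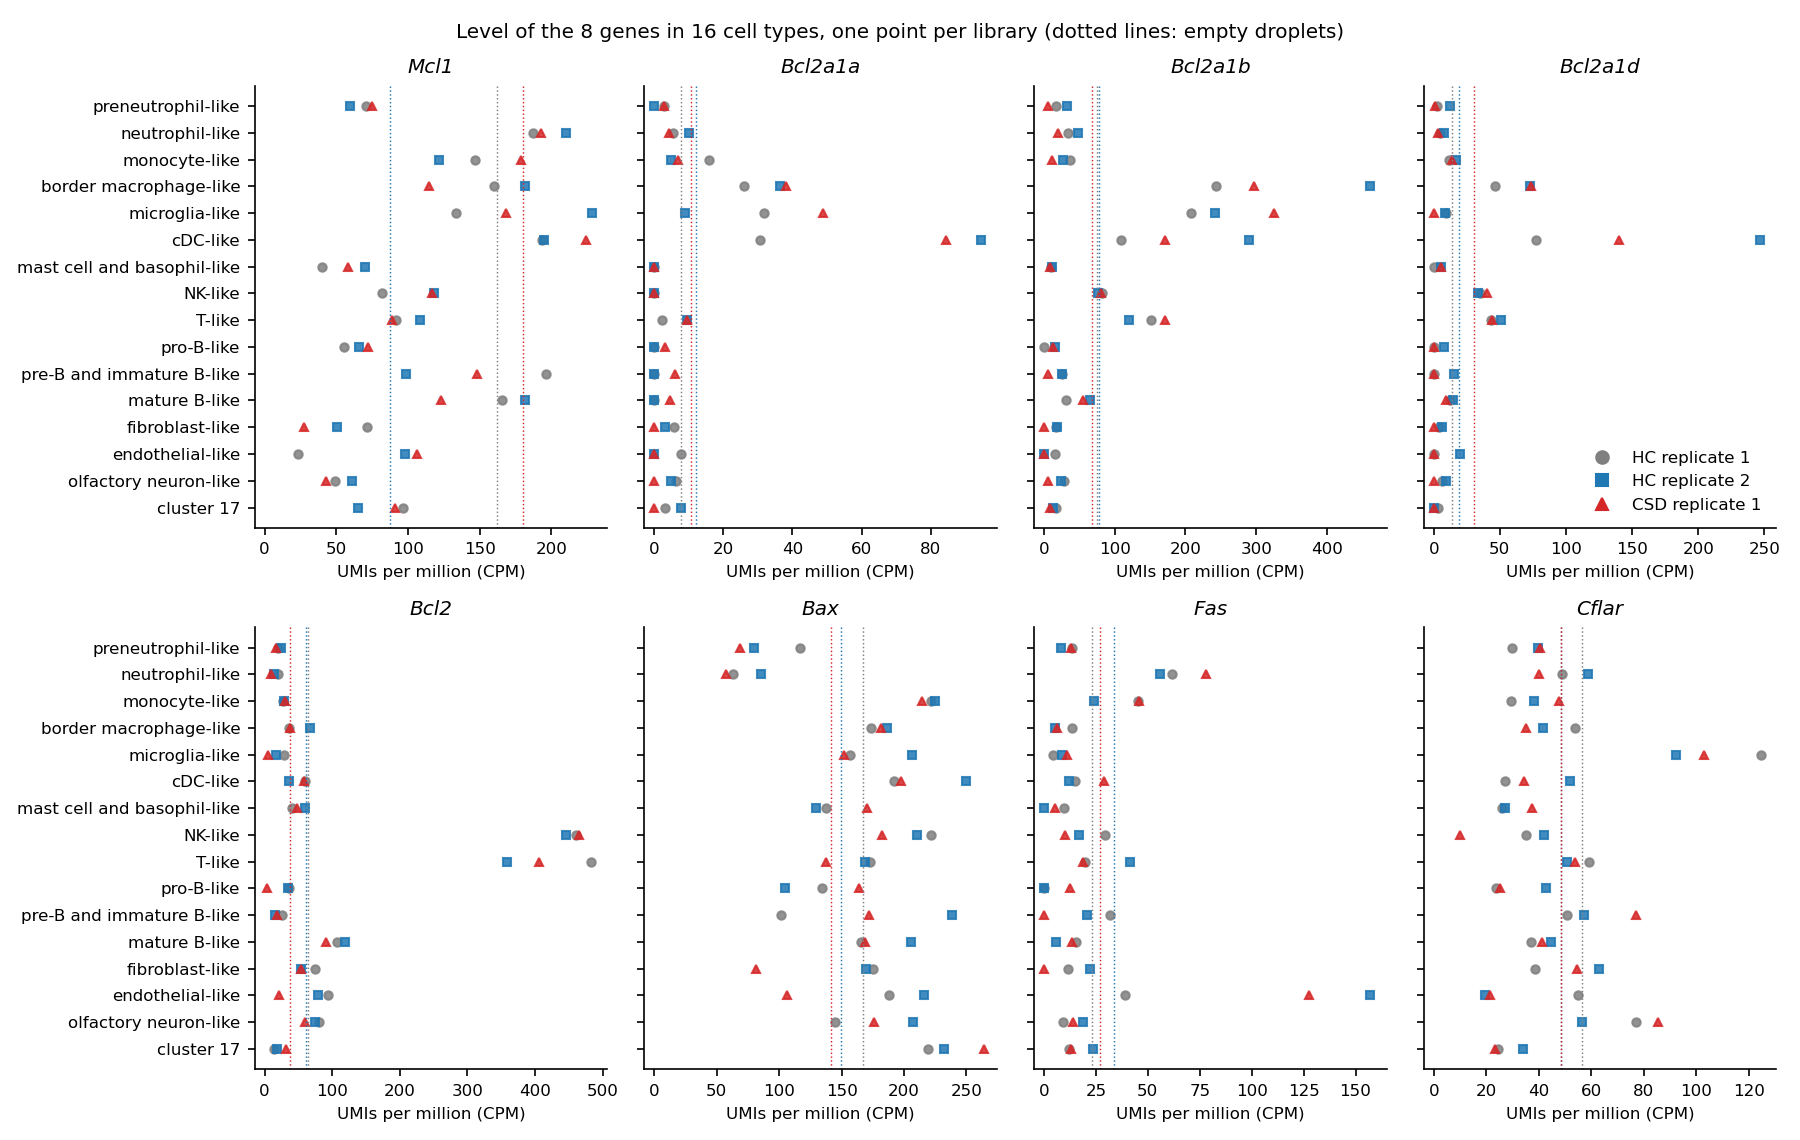
Level in CPM (x axis, a scale for each gene) of the 8 genes in 16 cell types (y axis), 1 point per library and dotted lines for the empty droplets of each library. *Bcl2* separates NK-like and T-like cells, at 359 to 483 CPM, from all others, and *Fas* puts neutrophil-like cells at 55.8 to 77.9 CPM.

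For 4 members the genes with the most similar pattern over the 16 types were sought among 5912 genes, as Pearson correlation of log2(CPM + 10). The points share libraries and free RNA, and the values are descriptions. *Mcl1* was most like *Actb* (r = 0.88), *Snx20* (0.84), *Actr2* (0.82), *Camk1d* (0.82) and *Hcls1* (0.81). *Bcl2a1b* was most like *Cyth4* (0.88), *Ier5* (0.87), *Gpr183* (0.87), *Phf11b* (0.85) and *Skil* (0.84), ahead of its own copies *Bcl2a1a* (0.77) and *Bcl2a1d* (0.76). *Bcl2* was most like *Fam189b* (0.91), *Gata3* (0.90), *Txk* (0.89), *Cxcr6* (0.89) and *Skap1* (0.89). *Cflar* was most like *Ddx3x* (0.81), *Abhd6* (0.81), *Jmjd1c* (0.80), *Col27a1* (0.78) and *Fam134b* (0.78).

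The next comparison followed the genes along neutrophil maturation. Neutrophil-like cells were split into 6 subclusters, numbered here by their rising mature and falling immature marker scores, with 1 to 3 called immature (1132 cells, rich in *Camp*, *Ngp* and *Ltf*) and 4 to 6 mature (1513 cells, rich in *Ccl6* and, at the end, *Il1b*). *Junb* and *Dusp1* were also among the 10 leading genes of subclusters 5 and 6, and *Fos* among those of subcluster 6. Whether maturation alone orders the subclusters was not tested. The mature share was 59.5% in HC replicate 1 (exact interval 55.9 to 63.0), 55.1% in HC replicate 2 (50.8 to 59.2) and 56.8% in CSD replicate 1 (54.0 to 59.5), and the intervals overlapped. Mature cells held less RNA, at a mean of 1423 to 1616 UMIs against 3368 to 3944 in immature cells. A level relative to all RNA (CPM) and a number of molecules per cell therefore answer different questions, and both are given.

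On the CPM scale *Mcl1* was higher in mature than in immature cells in every library. Immature cells had 121, 136 and 124 CPM and mature cells 309, 349 and 319 CPM, without overlap, and only the mature level lay above the 87.4 to 181 CPM of empty droplets throughout. From subcluster 1 to subcluster 6 the level went from 82.4 to 434 CPM in HC replicate 1, from 101 to 565 CPM in HC replicate 2 and from 104 to 511 CPM in CSD replicate 1. The log2 fold change of mature against immature cells was 1.24 (SE 0.086, adjusted p = 1.27e-09, edgeR's quasi-likelihood test with library as a block).

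*Fas* rose along the same course. Immature cells had 35.2, 38.7 and 42.6 CPM, mature cells 109.8, 87.8 and 143 CPM, and the ranges did not overlap. The subclusters on either side of the border did overlap. Immature subcluster 3 had 65.6, 88.5 and 80.5 CPM, and mature subcluster 4 had 105, 54.1 and 132 CPM. In HC replicate 2 the level thus fell across the border. Subcluster 1 was at the level of free RNA, with 19.4, 16.9 and 31.8 CPM, and subcluster 6 reached 123, 123 and 164 CPM. The log2 fold change was 1.503 (SE 0.13, adjusted p = 2.84e-08). In the same test 708 of 1181 genes (59.9%) passed the threshold, since the stages were cut from the same cells, so passing says little about either gene. The p-values measure how alike the 3 libraries were. By size, however, 94.0% of the 1181 genes had a smaller log2 fold change than *Mcl1* and 95.8% than *Fas*. Among the 9539 genes with at least 10 UMIs the shares were 94.9% and 96.8%.

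**Figure D3:**
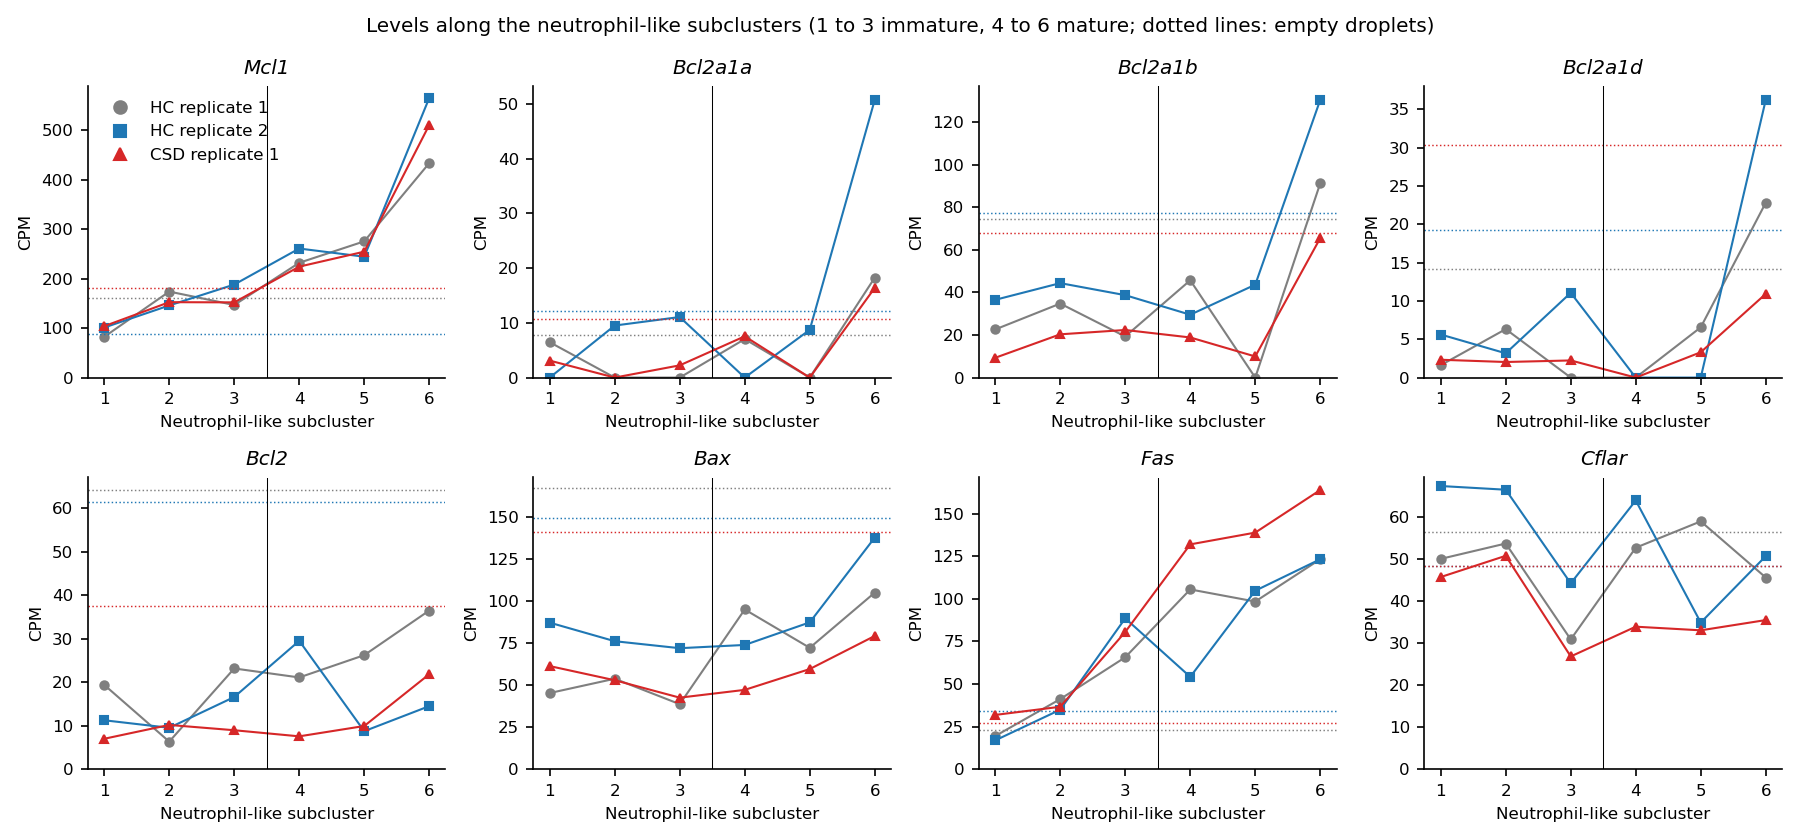
Level in CPM (y axis) of the 8 genes along the 6 neutrophil-like subclusters (x axis), 1 line per library, with a vertical line between immature (1 to 3) and mature (4 to 6) and dotted lines for the empty droplets. *Mcl1* ends at 434 to 565 CPM and *Fas* at 123 to 164 CPM, well above free RNA, while *Bcl2* and *Bax* stay below it.

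Those 2 genes alone were found in more than 15% of neutrophil-like cells. *Fas* passed that filter through CSD replicate 1, with 0.204 UMIs per cell there against 0.147 and 0.130 in the HC libraries. All 8 could be tested among the 9539 genes with at least 10 UMIs, of which 1712 (17.9%) passed, and 4 of the 8 did so: *Mcl1* (log2 fold change 1.26), *Fas* (1.52), *Bcl2a1a* (1.53, SE 0.49, adjusted p = 0.0152) and *Bcl2a1b* (0.81, SE 0.22, adjusted p = 0.00199). The median of the 8 was 0.93, that of all genes tested -0.03. *Bcl2a1b* had 25.1, 39.9 and 14.4 CPM in immature and 50.3, 63.6 and 30.9 CPM in mature cells, higher in each library, though the ranges overlapped and all 6 values were below free RNA. In subcluster 6 it reached 91.3, 130 and 65.5 CPM, above the empty droplets of its own library in both HC libraries and not in CSD replicate 1. *Bcl2a1a* rested on 24 UMIs in mature and 14 in immature cells. With the copies summed the log2 fold change was 0.95 (SE 0.19, adjusted p = 1.51e-05). The calls of *Bcl2a1a* and *Bcl2a1b* did not hold without CSD replicate 1 (adjusted p = 0.192 and 0.0770) or among cells of at least 1000 UMIs (0.286 and 0.0774), and that of *Bcl2a1a* was also lost without HC replicate 2 (0.0783). By DESeq2 the adjusted p of *Bcl2a1b* was 0.181, and with the empty-droplet profile subtracted that of *Bcl2a1a* was 0.0870 by edgeR.

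The remaining members did not pass. *Bcl2* stood at 16.7, 11.7 and 8.1 CPM in immature and 27.4, 19.7 and 12.5 CPM in mature cells (log2 fold change 0.57, SE 0.31, adjusted p = 0.221). *Bax* had 46.1, 79.8 and 55.6 CPM in immature and 93.0, 96.6 and 60.0 CPM in mature cells (0.32, SE 0.15, adjusted p = 0.162). *Cflar* had 46.9, 62.2 and 43.1 CPM in immature and 51.8, 52.7 and 34.2 CPM in mature cells (-0.26, SE 0.18, adjusted p = 0.393). The value for *Bcl2a1d* was 1.05 (SE 0.58, adjusted p = 0.235) on 29 UMIs.

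Counted per cell, *Mcl1* was near the same level in both stages although mature cells held fewer UMIs in all. Immature cells held 0.459, 0.458 and 0.490 *Mcl1* UMIs per cell and mature cells 0.440, 0.513 and 0.516, with overlapping ranges. In CPM, 2 of the 6 values of *Mcl1*, both in immature cells, were at or below the empty droplets of their own library. The part of free RNA in these per-cell values was not tested. The log2 fold change per cell was 0.06 (SE 0.11, adjusted p = 0.597), while the median over the 1181 genes was -1.19. Here 1132 genes passed, 59 of them higher and 1073 lower in mature cells. *Fas* was among the higher ones at 0.31 (SE 0.14, adjusted p = 0.0282), with 0.134, 0.130 and 0.168 UMIs per immature and 0.156, 0.129 and 0.232 per mature cell, and in HC replicate 2 the mature value was not the higher one. With all 9539 genes in the fit its adjusted p was 0.0711.

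The other members were lower per cell or did not pass. Their values are from the per-cell fit on 9539 genes, of which 6403 (67.1%) passed, 136 higher and 6267 lower in mature cells. Passing as lower there says little about a single gene. *Cflar* fell by 1.46 on the log2 scale per cell (adjusted p = 1.19e-14), from 0.178, 0.209 and 0.170 to 0.0738, 0.0774 and 0.0553 UMIs, with no overlap. *Bax* fell by 0.88 (adjusted p = 5.71e-08), from 0.175, 0.269 and 0.219 to 0.132, 0.142 and 0.0970 UMIs, again with no overlap. In CPM, however, all 6 values of *Bax* and 4 of the 6 of *Cflar* were at or below the empty droplets of their own library. The part of free RNA in these falls was not tested. *Bcl2* (-0.63, adjusted p = 0.0625), *Bcl2a1b* (-0.37, adjusted p = 0.121), *Bcl2a1d* (-0.10, adjusted p = 0.875) and *Bcl2a1a* (0.37, adjusted p = 0.509) did not pass. With all genes in the fit the median was -1.21, and of the 8 genes *Cflar* alone lay below it.

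**Figure D4:**
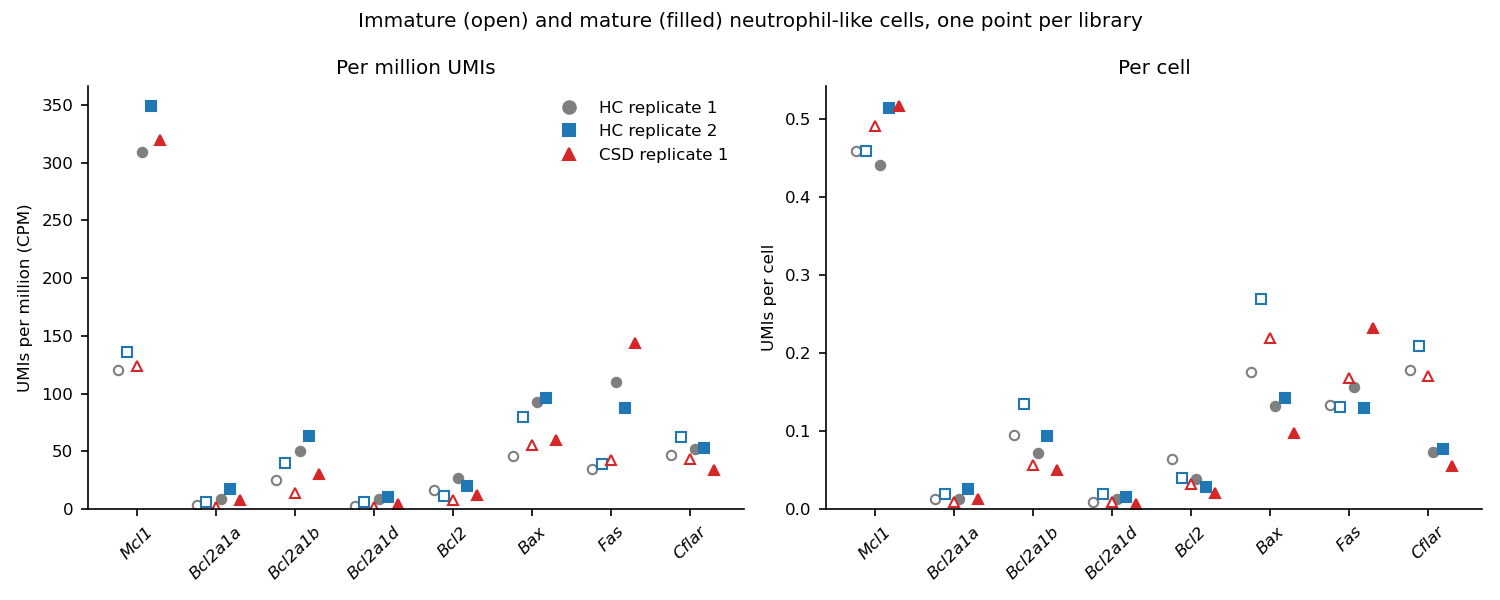
The 8 genes (x axis) in immature (open symbols) and mature (filled) neutrophil-like cells, 1 symbol per library, as a level in CPM (left) and as UMIs per cell (right). *Mcl1* separates by stage on the left, at 121 to 136 against 309 to 349 CPM, and overlaps on the right, while *Cflar* and *Bax* separate on the right.

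Shares of cells gave the same order at equal depth, where a share restates the level in CPM and is no separate support. With every cell thinned to 500 UMIs, *Mcl1* was detected in 15.2%, 18.1% and 16.6% of mature and 5.73%, 6.32% and 6.37% of immature cells. The share was 2.26%, 0% and 0% in fibroblast-like cells (3 of 133, 0 of 93 and 0 of 24, the last 2 allowing up to 3.23% and 12.5% taking 3 counts of the total as the limit). *Fas* was detected in 5.42%, 5.81% and 8.63% of mature and 2.87%, 1.19% and 2.48% of immature cells. In fibroblast-like cells the share was 0%, 3.23% and 0% (0 of 133 allows up to 2.26%). The immature and fibroblast-like shares overlapped, and whether fibroblast-like cells lack *Fas* was not tested. In CPM the immature level of *Fas* was above that of empty droplets in each library. Without thinning the mean shares were 37.2% and 35.5% for *Mcl1* in mature and immature cells, and 15.7% and 13.02% for *Fas*.

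CSD and HC were then compared in neutrophil-like cells, to ask whether the 8 genes differed after defeat. No member passed the threshold. Among genes in more than 15% of cells, 49 of 1181 (4.15%) passed, and neither *Mcl1* nor *Fas* was among them. Among the 9539 genes with at least 10 UMIs, 276 (2.89%) passed, and 0 of the 8 members, with 2 at an unadjusted p below 0.05 (*Fas* and *Bcl2a1b*) and 0 members called by DESeq2 either. Only the 2 HC libraries informed the spread (1 residual degree of freedom), which was taken to hold for the CSD pool too. In counts simulated for the 1181 genes of the narrower fit, which hold *Mcl1* and *Fas* alone of the 8, the test recovered 88% of genes changed 2-fold and 100% of those changed 4-fold. Every simulated gene had the same spread, and the CSD pool had no deviation particular to it. The shares recovered can therefore be higher than in real counts. Smaller changes and the wider fit were not simulated.

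*Mcl1* was close to equal, with CSD replicate 1 at 193 CPM between the 188 and 210 CPM of the HC libraries. Its log2 fold change was 0.03 (SE 0.15, adjusted p = 0.935). *Fas* was higher in CSD replicate 1, at 77.9 CPM against 61.6 and 55.8 CPM, with no overlap. In the narrower fit, which *Fas* entered through CSD replicate 1 alone, its log2 fold change was 0.47 (SE 0.21, adjusted p = 0.229), and in the wider fit 0.64 (SE 0.22, adjusted p = 0.0885). Its sign was positive under all 11 alternatives, from 0.35 to 0.64, and none of the 9 that allowed a test called it.

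*Bcl2a1b* was lower in CSD replicate 1, at 20.1 CPM against 34.0 and 48.2 CPM (log2 fold change -0.77, SE 0.28, adjusted p = 0.123). The share of free RNA in neutrophil-like cells was also lowest in that library (21.7% against 28.0% and 29.2%), and all 3 values of *Bcl2a1b* were below those of empty droplets. With the empty-droplet profile subtracted the value was -1.79 (SE 0.56, adjusted p = 0.661). Without TMM normalization, which moved the median of all genes to -0.26, it was -1.01 and passed (adjusted p = 0.0293).

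*Bcl2* (-0.66, SE 0.38, adjusted p = 0.511), *Bcl2a1d* (-0.81, SE 0.65, adjusted p = 0.712), *Bcl2a1a* (-0.51, SE 0.57, adjusted p = 0.820), *Cflar* (-0.18, SE 0.24, adjusted p = 0.869) and *Bax* (-0.12, SE 0.22, adjusted p = 0.907) completed the 8. In each of these 5 the CSD level in CPM was below both HC levels. The share of all genes for which this held was not computed. Without TMM normalization, which CPM also lacks, the median log2 fold change of all genes was -0.26. The median of the 8 log2 fold changes was -0.35, that of all genes tested -0.03.

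The split by stage left these comparisons as they were. In mature cells *Fas* had 143 CPM in CSD replicate 1 and 109.8 and 87.8 CPM in the HC libraries (log2 fold change 0.57, SE 0.23, adjusted p = 0.165). In immature cells it had 42.6 CPM against 35.2 and 38.7 CPM (0.42, SE 0.28, adjusted p = 0.709). The mature value is from the narrower fit. The immature value is from the wider fit, because *Fas* missed the filter of the narrower one in immature cells. The gap between these values is therefore not a comparison of the stages. The mature value of the wider fit is given with the other cell types and stages below. The difference of the differences for *Fas*, tested with both stages in the narrower fit, was 0.36 (SE 0.27, adjusted p = 0.738). For *Mcl1* it was 0.07 (SE 0.18, adjusted p = 0.944). In that test of stage by condition 22 of 1181 genes (1.86%) passed and neither of the 2 members, and in the wider fit 24 of 9539 (0.252%) and 0 of 8.

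**Figure D5:**
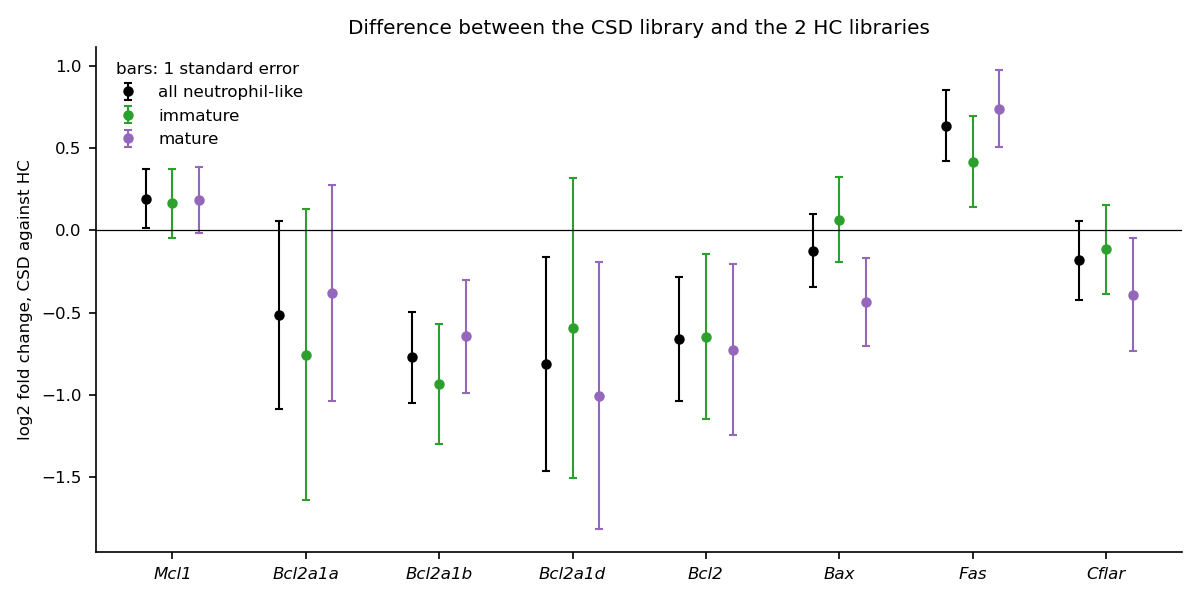
Log2 fold change of CSD against HC (y axis) for the 8 genes (x axis) among genes with at least 10 UMIs, in all, immature and mature neutrophil-like cells, with bars of 1 standard error. *Fas* lies above 0 in each of the 3 groups and *Bcl2a1b* below, and no value passed the threshold.

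Outside the pooled neutrophil-like cells, CSD and HC were compared within 11 cell types and stages with at least 50 cells in each library. Over all of them 98 of 21126 gene tests (0.464%) passed in the narrower fits and 458 of 74541 (0.614%) in the wider. The members had 37 and 75 of these tests, of which 0 and 0 passed and 1 and 3 had an unadjusted p below 0.05. The 3 were *Fas* in mature cells (0.74, adjusted p = 0.0826), *Bcl2a1b* in immature cells (-0.93, adjusted p = 0.248) and *Bcl2* in pro-B-like cells (-3.25, adjusted p = 0.346), by edgeR.

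Beyond the 8, 43 genes of the pathway in 8 lists were examined. None passed between CSD and HC, of 4 tested in the narrower fit and 34 in the wider, where 2 had an unadjusted p below 0.05: *Birc5*, an inhibitor of apoptosis also known from dividing cells (0.65, adjusted p = 0.139), and *Bcl2l1*, which encodes Bcl-xL (0.79, adjusted p = 0.356). DESeq2 was not applied to the lists. The median of the 34 was -0.04, that of all genes -0.03.

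Between stages the 4 genes of the narrower fit all passed, as did 59.9% of all genes in it. *Pim1*, a kinase induced by cytokine signals, had 35.2, 101 and 48.5 CPM in immature and 216, 351 and 198 CPM in mature cells (log2 fold change 1.98, adjusted p = 8.24e-10), although empty droplets held 176, 425 and 247 CPM. *Nfkbia*, the inhibitor of NF-kB, went from 354, 502 and 378 to 796, 957 and 850 CPM (0.97, adjusted p = 8.23e-10). *Tnfrsf1a*, a receptor of TNF, rose by 0.94 (adjusted p = 4.55e-06), and *Cycs*, cytochrome c, fell by 0.67 (adjusted p = 2.70e-04).

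In the wider fit 7 of 34 list genes were higher and 2 lower in mature cells (26.5% passed, against 17.9% of all genes), with a median of 0.19 against -0.03 over all genes. Of the BH3-only genes, whose products counter Mcl1 and its relatives, 3 of 6 tested were higher and none lower, in a fit where 17.9% of all genes passed. They were *Pmaip1* (2.51, adjusted p = 1.34e-09), which encodes Noxa, *Bcl2l11* (1.19, adjusted p = 0.0405), which encodes Bim, and *Bid* (0.69, adjusted p = 0.0380), while *Bad*, the most abundant, was at -0.20 (adjusted p = 0.569). *Pmaip1* had 4.19, 5.87 and 3.14 CPM in immature and 39.6, 24.1 and 17.5 CPM in mature cells, without overlap, from 17 and 58 UMIs and beside 28.3, 15.04 and 26.8 CPM in empty droplets. *Pmaip1* and *Bcl2l11* are named after their values were seen.

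The other lists gave fewer calls. Of the other anti-apoptotic genes *Bcl2l1* was the only one tested and was higher (0.89, adjusted p = 0.0299), and *Bcl2l2* had 6 UMIs in all. Of the effectors *Bak1* did not pass (-0.63, adjusted p = 0.0521) and *Bok* had 5 UMIs. Of 3 death receptors and ligands tested 1 passed, *Tnfrsf1a*, and *Tnf* did not (0.17, adjusted p = 0.792). Of the receptor complex 0 of 5 passed, among them *Ripk1* (0.18) and *Tradd* (0.21). Of the caspases and the apoptosome *Cycs* was lower, as above, and *Diablo* was at 0.04. Of the inhibitors of apoptosis 0 of 4 passed, with *Birc3* at 0.55 and *Birc5* at -0.39. Of the regulators of Mcl1 protein and of NF-kB 2 of 7 were higher, *Pim1* and *Nfkbia*.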

How the data were processed

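The deposited file holds counts, whole numbers of UMIs per gene and barcode that the authors made with Cell Ranger 2 (10x 3′ libraries, mm10, per the submitters' processing notes), without cell calling or normalization. No source used here names the gene annotation. The barcode suffix, a number that the sample labels repeat, gave the library. The 8 genes and the lists were chosen with earlier results of these data known. Cells met the limits on UMIs, genes and mitochondrial share of the report, and doublets were left in. Clustering (scanpy 1.11.5) used 3000 variable genes without the 8 genes and the pathway lists, 50 components, a mutual-nearest-neighbour correction and Leiden resolution 1, and clusters were named by marker lists. The cluster named preneutrophil-like had 6 immature neutrophil genes among its 10 leading genes, and its depth in HC replicate 2 was a median of 2414 UMIs against 10360 and 10637. UMIs were summed per library and tested with edgeR 4.0.16 (glmQLFit, glmQLFTest, TMM, two-sided, Benjamini-Hochberg over all genes tested, threshold 0.05) in genes found in more than 15% of cells. Members outside that filter are given from the fit on genes with at least 10 UMIs. The SE is the log2 fold change over the square root of F. Pools were the replicates, so p-values measure the spread between pools. Intervals of shares are exact (Clopper-Pearson, 95%), the limit of a share of 0 cells is 3 counts of the total, and both reflect counting error alone. The alternatives were DESeq2 1.42.0, no TMM, 1000 UMIs per cell, removal of the top 5% of Scrublet scores, subtraction of the empty-droplet profile, no neighbour correction, Leiden resolution 2, 8 subclusters, summed copies, leaving out each library and, chosen after seeing the data, UMIs per cell. Named genes were the 8, list genes called between CSD and HC, the 3 largest called changes each way between stages, the 2 most abundant of each list, and the 5 genes most like each of 4 members. The tests in the 1181 genes found in more than 15% of neutrophil-like cells recovered known changes in simulated counts, in which every gene had the same spread. The result of a pathway list gene is not reported here.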

Additional observations from a re-analysis of the deposited data

How the results depend on the processing

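Of 159 comparisons of a member's log2 fold change with an alternative that gave a test, 142 kept their direction and their side of the threshold, 9 lost the call, 2 gained one and 6 changed sign. Of 16 values without a test, those that left out an HC library between CSD and HC, 14 kept their sign. The summed copies gave -0.74 (adjusted p = 0.0888) between CSD and HC and 0.95 (adjusted p = 1.51e-05) between stages, by edgeR. The number of genes past the threshold between CSD and HC, 49, was 1 among cells of at least 1000 UMIs, 1 without the top Scrublet scores, 11 with DESeq2, 18 without TMM, 276 among genes with at least 10 UMIs, 0 with the empty-droplet profile subtracted (86 at an unadjusted p below 0.05 by edgeR), 11 without neighbour correction, 13 at Leiden resolution 2 and 1 per cell. The number between stages, 708, was 1712 among genes with at least 10 UMIs and 1132 per cell, and 619 to 676 when 1 library was left out. Unthinned shares were 37.2% and 35.5% for *Mcl1* and 15.7% and 13.02% for *Fas*, against 16.6%, 6.14%, 6.62% and 2.18% thinned.

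Between CSD and HC the value of *Mcl1* turned to -0.044 without TMM and to -0.19 with the empty-droplet profile subtracted, and ranged from -0.0049 to 0.057 without 1 HC library. *Bax* ranged from -0.31 to 0.056, the latter without HC replicate 2. Between stages the per-cell scale turned *Bcl2a1b* (-0.37), *Bcl2a1d* (-0.10), *Bcl2* (-0.63) and *Bax* (-0.88), by its construction, since mature cells hold less RNA. *Fas* passed between stages under all 13 alternatives, with the highest adjusted p, 0.0282, per cell (0.0711 when the per-cell fit held all 9539 genes), and *Mcl1* under 12 of 13, all but the per-cell scale (edgeR or DESeq2). No paired analysis was possible because no label pairs an HC pool with the CSD pool. Without an HC library the comparison of CSD with HC is 1 library against 1 and gives values only. Depth limits the *Bcl2a1* copies and *Bcl2*, at 29 to 195 UMIs in neutrophil-like cells.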
